A study of Homo sapiens with 9 samples.

Results

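Autophagy and lysosome genes were followed through a sulforaphane time course in GM12878, a human B-lymphoblastoid cell line transformed with Epstein-Barr virus. The list held 45 gene symbols: the ATG8 family, autophagy receptors, the core autophagy machinery, the TFE transcription factors and lysosome genes. A symbol was kept where the array had a transcript cluster (the set of probes for a gene) annotated to it and to no other gene. This held for 35 of the 45, out of 22011 clusters on the array, of which 14432 carried a single symbol. The 8 symbols GABARAPL1, SQSTM1, ATG16L1, BECN1, WIPI1, CTSD, CTSL and NPC2 lay only on clusters shared with other genes, and ATG2A and ATG4B matched no cluster, so these 10 were not analysed here.

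The cultures were untreated at 0 h, or had spent 8 h or 24 h with 10 µM D,L-sulforaphane, a plant isothiocyanate, with 3 cultures and 3 arrays for each time. The protocol names 0.1% DMSO as the vehicle, but no array here came from vehicle-treated cells, so hours in culture and sulforaphane cannot be told apart in any comparison with 0 h. All cultures were of the same line, seeded alike in medium with 15% serum. Values are log2 RMA signals, in which a difference of 1 is a doubling of signal, and signals of different clusters depend on their probes and are not set against each other.

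Autophagy encloses cytoplasm in a double membrane that then fuses with the lysosome. The ULK1 kinase complex (ULK1, ULK2, ATG13, ATG101, RB1CC1) starts the process. Proteins of the ATG8 family are then joined to lipid on the growing membrane with the help of the conjugation proteins ATG7, ATG3, ATG10, ATG5 and ATG12. Receptors such as NBR1 and SQSTM1 tie cargo to the ATG8 proteins. TFEB, TFE3 and MITF are related transcription factors that bind E-boxes in many lysosome and autophagy genes, and they are held in the cytoplasm by mTORC1 when nutrients are plentiful. Sulforaphane is best known for releasing NRF2, which binds antioxidant response elements.

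Promoter sequences bear on both kinds of factor. RefSeq promoter windows (GRCh38.p14, 250 bases before to 50 after a gene's start) were matched by symbol to 28 of the 35 members, which had 37 windows. Both strands were searched for the E-box core CACGTG, for the longer CLEAR element, which contains that core, and for the antioxidant response element core TGACNNNGC. The E-box core was found in 6 of the 37 windows (16.2%), against 7.26% of all 35116 windows in the table. The antioxidant response element core was also in 6 (16.2%), against 13.3%, and the CLEAR element in 1 (2.7%), against 0.353%. A match describes letters in a window and is not evidence that a factor was bound. The E-box windows belonged to LAMP1, MCOLN1, ATP6V0D1, NEU1, ATG3 and ATG14, so 4 of the 6 were lysosome genes. The members without a matched window were MAP1LC3A, RB1CC1, UVRAG, LAMP2, CTSB, ATP6V1H and HEXA. Among the lysosome genes, GLA alone had a window without the E-box core.

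Shown here, 5′ to 3′ on the gene's strand, is the window of MAP1LC3B (chr16:87392086-87392385, plus strand), with its antioxidant response element core in capitals. MAP1LC3B was the only measured ATG8 gene called in the tests below. TFE3 and NBR1, which were also called, had windows without that core. The windows of 3 lysosome genes follow, LAMP1 (chr13:113296989-113297288, plus strand), MCOLN1 (chr19:7522374-7522673, plus strand) and ATP6V0D1 (chr16:67481108-67481407, minus strand), with each E-box core in capitals. LAMP1 held 6 E-box cores and MCOLN1 held 2, the second of them inside the CLEAR element. The lysosome genes are shown because the E-box letters are those that the TFE family binds.
MAP1LC3B: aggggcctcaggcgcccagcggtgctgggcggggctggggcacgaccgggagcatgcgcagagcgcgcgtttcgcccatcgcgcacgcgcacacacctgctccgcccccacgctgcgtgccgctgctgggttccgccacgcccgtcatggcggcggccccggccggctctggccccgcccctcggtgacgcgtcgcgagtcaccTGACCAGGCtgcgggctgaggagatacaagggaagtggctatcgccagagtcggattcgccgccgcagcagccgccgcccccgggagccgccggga
LAMP1: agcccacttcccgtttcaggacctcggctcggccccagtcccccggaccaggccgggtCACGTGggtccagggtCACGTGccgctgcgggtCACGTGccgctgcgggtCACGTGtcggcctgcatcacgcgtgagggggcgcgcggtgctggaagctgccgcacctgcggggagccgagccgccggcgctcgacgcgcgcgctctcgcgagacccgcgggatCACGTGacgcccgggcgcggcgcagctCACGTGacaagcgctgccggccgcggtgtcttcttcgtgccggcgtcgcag
MCOLN1: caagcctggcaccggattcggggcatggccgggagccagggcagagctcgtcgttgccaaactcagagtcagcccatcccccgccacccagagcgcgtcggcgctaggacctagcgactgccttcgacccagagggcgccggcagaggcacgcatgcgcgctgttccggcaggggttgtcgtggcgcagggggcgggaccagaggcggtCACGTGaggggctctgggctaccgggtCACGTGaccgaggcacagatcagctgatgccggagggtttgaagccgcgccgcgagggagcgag
ATP6V0D1: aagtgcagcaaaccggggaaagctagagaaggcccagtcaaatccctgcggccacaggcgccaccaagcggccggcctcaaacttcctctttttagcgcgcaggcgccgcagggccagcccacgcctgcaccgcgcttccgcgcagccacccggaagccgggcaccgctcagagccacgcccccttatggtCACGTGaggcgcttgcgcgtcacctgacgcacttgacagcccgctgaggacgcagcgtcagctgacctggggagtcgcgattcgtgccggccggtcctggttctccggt

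**Figure D1:**
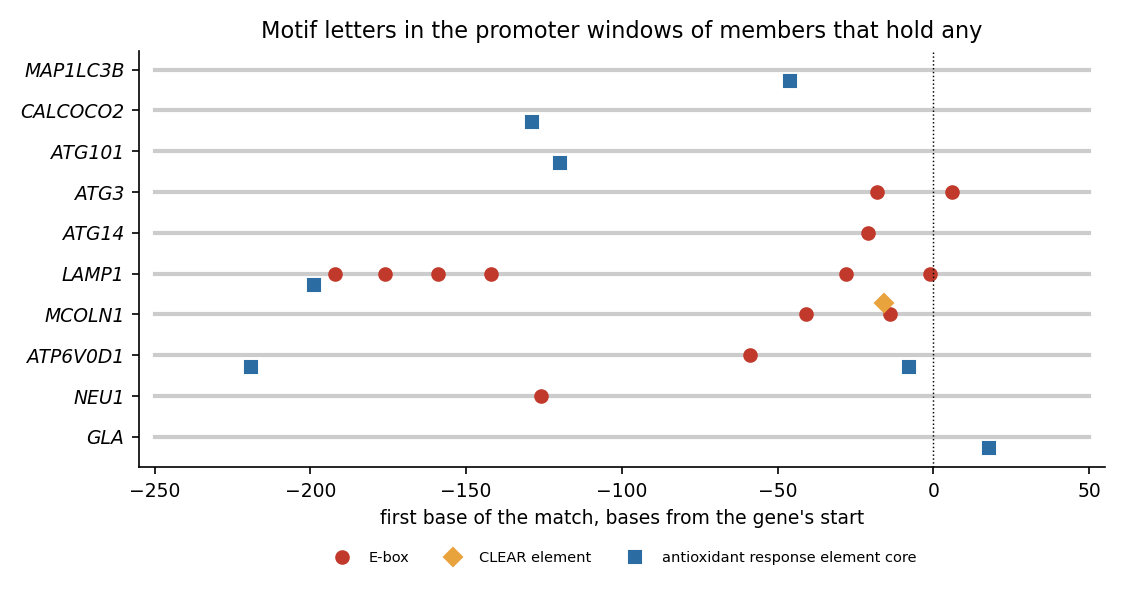
Positions of the motif letters in the promoter windows of the 10 members that held any. The horizontal axis gives the first base of each match in bases from the gene's start (negative: before it), and each row is 1 gene, from 250 bases before to 50 after. LAMP1 carries 6 E-box cores, and in MCOLN1 the CLEAR element covers the second of 2.

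Before the results, the arrays were checked. Array means lay between 7.97 and 8.14, and the median correlation within groups was 0.992. The second untreated array stood apart, with a score of 54.45 on the first principal component against -29.95 to 16.39 for the others. The members were low on it: their median deviation from their own 9-array means was -0.27, against -0.12 to 0.10 on the other arrays, while that of all clusters was -0.01. Bright signals in general were low on it too: the upper quartile of all clusters was 9.28, against 9.42 to 9.63 on the other arrays. The members also lay mostly among brighter clusters, with 14 in the brightest and 16 in the next of 4 equal classes by mean signal. Clusters of the brightest class had a median difference from 0 h of 0.05 at 8 h and 0.09 at 24 h, and the part of brightness in the members' differences was not tested. The 9 measured B-cell markers had mean signals of 10.26 to 13.43. The 9 T-cell and NK-cell markers had 4.91 to 9.28, the 8 myeloid markers 4.90 to 9.16 and the 6 fibroblast markers 3.94 to 8.38. With limma 0 markers of these 4 lists were called in any comparison, and at an unadjusted p below 0.05 there were at most 2 per list and comparison. All 8 myeloid markers were below 0 in both comparisons with 0 h (medians -0.20 at 8 h and -0.14 at 24 h). Without untreated replicate 2 these medians were -0.11 and -0.06. At 8 h, 3 of 9 B-cell, 1 of 9 T-cell and NK-cell and 0 of 6 fibroblast markers were above 0. At 24 h these counts were 4, 4 and 1. Clusters of the class next above the dimmest had a median of -0.06 at both times. The part of other cells in the members' differences was not tested. In 9 arrays of whole cultures, more RNA per cell and more cells that express a gene cannot be told apart.

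**Figure D2:**
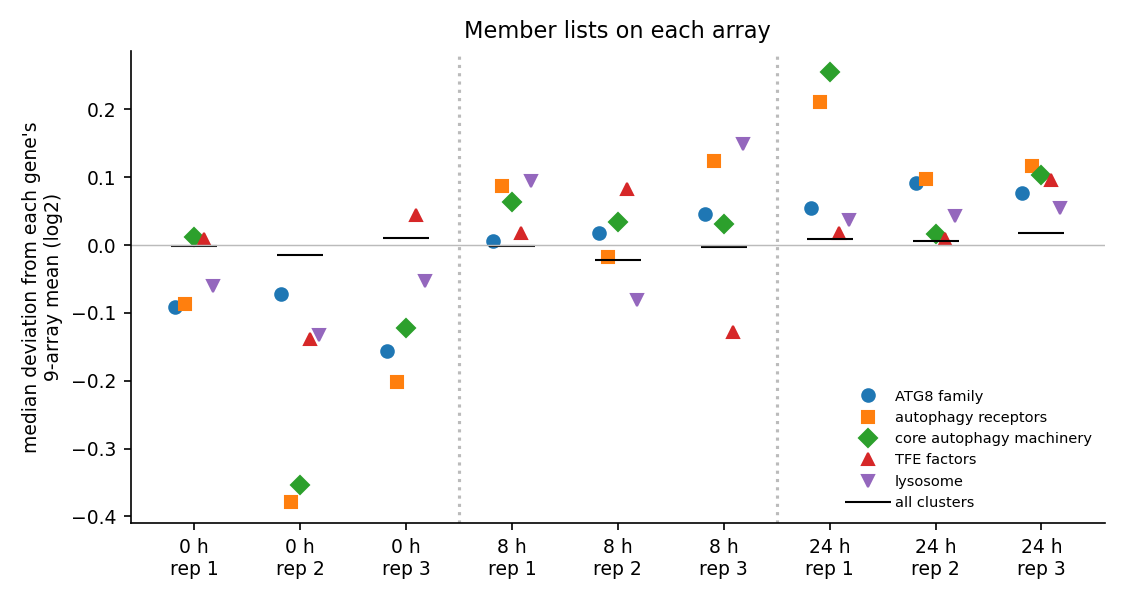
Median deviation of each member list from its genes' 9-array means (log2, vertical axis) on each array, by time and replicate, with black bars for all clusters. Every list but the ATG8 family is lowest on the second untreated array, receptors and core machinery by the most. The ATG8, receptor and lysosome lists are below 0 on all untreated arrays.

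Across the 3 times, MAP1LC3B, TFE3 and NBR1 were the members called. With limma's moderated F-test, 3 of 35 passed at an adjusted p below 0.05, against 1.35% of all clusters. In the same test 16 of 35 (45.7%) had an unadjusted p below 0.05, against 18.2% of clusters. A member that was not called is not shown to be unchanged. In the comparison of 8 h with 0 h, MAP1LC3B and TFE3 rose and 0 members fell, and 0.595% of all clusters were called in either direction (0.268% rose). At 24 h against 0 h, MAP1LC3B, TFE3 and NBR1 rose and 0 fell, and 1.62% of clusters were called (0.831% rose and 0.791% fell). Between 24 h and 8 h, 0 members were called by limma, 1 had an unadjusted p below 0.05 (CTSB, higher, against 6.91% of clusters higher at that p), and 0.327% of clusters were called. The called differences were modest, between 1.35- and 1.52-fold.

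MAP1LC3B encodes LC3B, the ATG8 protein most used to mark autophagosomes (cluster 3672830). Its signal was 11.59, 11.59 and 11.43 in untreated cultures, 12.25, 12.03 and 12.13 at 8 h, and 11.95, 11.98 and 11.97 at 24 h. All 8 h and 24 h cultures were above all untreated ones, and the 24 h cultures lay between the other times. The mean was 12.14 ± 0.11 at 8 h and 11.54 ± 0.09 untreated (SD, n = 3 each), a difference of 0.60 ± 0.08 (SE) or 1.52-fold (limma, adjusted p = 0.019). At 24 h the difference from untreated was 0.43 ± 0.08 or 1.35-fold (adjusted p = 0.039). The difference of 24 h from 8 h, -0.17 ± 0.08, did not pass (adjusted p = 0.49). The 8 h call was lost on leaving out the third untreated array, the first or the third 8 h array, or the second or the third 24 h array (differences 0.55 to 0.60, adjusted p = 0.052 to 0.095). The 24 h call was lost on leaving out any 24 h array, the first or the third 8 h array, or the second or the third untreated array (0.37 to 0.45, adjusted p = 0.054 to 0.14). It was also lost after quantile normalization (0.39, adjusted p = 0.079) and after centring each array on its median (0.37, adjusted p = 0.059). A near-identical gene copy, MAP1LC3B2, exists in the human genome, and probes may not tell the copies apart.

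TFE3 encodes a TFE factor (cluster 4007734). It had 9.17, 9.14 and 9.25 in untreated cultures, 9.85, 9.61 and 9.82 at 8 h, and 9.63, 9.61 and 9.64 at 24 h. Treated and untreated cultures did not overlap at either time. TFE3 averaged 9.76 ± 0.13 at 8 h and 9.19 ± 0.06 untreated (SD, n = 3 each), a rise of 0.57 ± 0.08 or 1.49-fold (adjusted p = 0.021). At 24 h it was higher than untreated by 0.44 ± 0.08 or 1.35-fold (adjusted p = 0.037), and 24 h differed from 8 h by -0.13 ± 0.08 (adjusted p = 0.60). The 8 h call was lost on leaving out any 24 h array, the first or the third 8 h array, or the third untreated array (0.52 to 0.60, adjusted p = 0.054 to 0.11). The 24 h call was lost without these same arrays or untreated replicate 2 (0.42 to 0.47, adjusted p = 0.067 to 0.14), and after quantile normalization (0.31, adjusted p = 0.083).

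NBR1, a cargo receptor for ubiquitin-tagged material and peroxisomes (cluster 3722417), had 9.55, 9.25 and 9.38 in untreated cultures, 9.98, 9.82 and 10.03 at 8 h, and 10.08, 9.85 and 9.92 at 24 h. The treated cultures were again all above the untreated ones, at similar levels at both times. The rise at 24 h was 0.56 ± 0.10 or 1.48-fold, from means of 9.95 ± 0.12 at 24 h and 9.39 ± 0.15 untreated (SD, n = 3 each; adjusted p = 0.040). At 8 h the difference was 0.55 ± 0.10 and just missed the threshold (adjusted p = 0.059). The F-test gave adjusted p = 0.049 for NBR1, 0.028 for TFE3 and 0.024 for MAP1LC3B. The 24 h call of NBR1 was lost on leaving out the same arrays as for the 24 h call of TFE3 (0.49 to 0.61, adjusted p = 0.070 to 0.16).

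**Figure D3:**
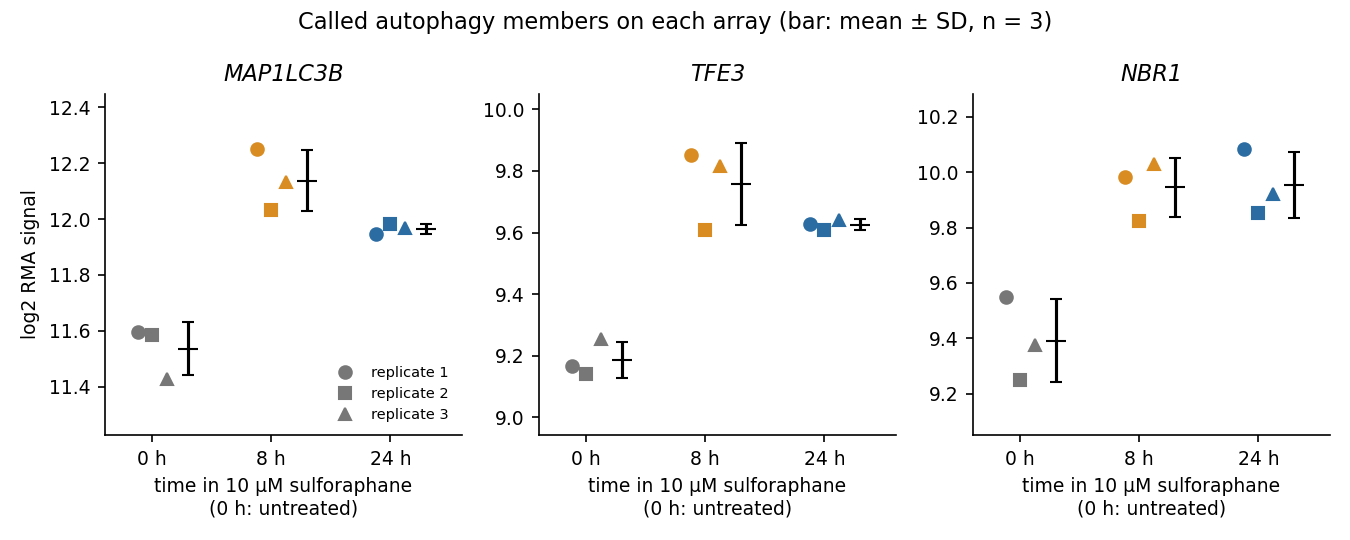
log2 RMA signal of MAP1LC3B, TFE3 and NBR1 (vertical axes, each with its own range that does not start at 0) on each array at 0, 8 and 24 h. Symbols are replicates and bars are mean ± SD (n = 3). Treated cultures lie above untreated ones in each panel, and for MAP1LC3B the 24 h values lie between the other groups.

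The other measured ATG8 genes did not pass the test. MAP1LC3A, which encodes LC3A, had 6.79, 7.17 and 6.97 in untreated cultures, 6.69, 6.50 and 6.66 at 8 h, and 6.79, 6.79 and 6.90 at 24 h. Its 8 h values were all below the untreated ones, with a difference of -0.36 ± 0.10 (adjusted p = 0.16), opposite in sign to MAP1LC3B. That 8 h difference was -0.27 without untreated replicate 2. MAP1LC3A was dim, with a mean signal of 6.80, in the brightness class next above the dimmest (6.69 to 8.08). At 8 h that class had a median difference of -0.06, with 33.7% of its clusters above 0. Whether the signal of MAP1LC3A was above background was not tested. The lower separation occurred in 1 of 35 members, against 8.55% of clusters. GABARAPL2, an ATG8 protein also known from Golgi transport, had 11.42, 11.29 and 11.29 untreated, 11.47, 11.55 and 11.55 at 8 h, and 11.52, 11.62 and 11.54 at 24 h. Its treated cultures were above the untreated ones, by 0.19 ± 0.06 at 8 h (adjusted p = 0.21) and 0.22 ± 0.06 at 24 h (adjusted p = 0.12). GABARAP, the founding member of its branch, had 12.70, 12.87 and 12.70 untreated, 12.84, 12.79 and 12.84 at 8 h, and 12.93, 12.91 and 12.90 at 24 h. Only its 24 h cultures were clear of the untreated range, by a mean of 0.16 ± 0.06 (adjusted p = 0.22).

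Among the receptors besides NBR1, TAX1BP1, which binds ubiquitin-tagged cargo, had the widest spread. It had 9.64, 8.69 and 9.50 in untreated cultures, 9.83, 9.72 and 9.78 at 8 h, and 10.50, 9.95 and 10.15 at 24 h. The difference at 24 h, 0.93 ± 0.24 or 1.90-fold, did not pass (adjusted p = 0.11), and the low second untreated culture weighed on it: without that array it was 0.63 at 24 h, and 0.21 in place of 0.50 at 8 h. OPTN, a receptor for damaged mitochondria and bacteria, had 8.42, 8.23 and 8.38 untreated, 8.52, 8.47 and 8.61 at 8 h, and 8.54, 8.58 and 8.54 at 24 h. Its treated cultures did not overlap with the untreated ones, at differences of 0.19 ± 0.07 and 0.21 ± 0.07 that did not pass (adjusted p = 0.25 at 8 h and 0.17 at 24 h). CALCOCO2, also called NDP52, a receptor for bacteria, had 10.08, 9.82 and 9.89 untreated, 10.14, 9.96 and 10.16 at 8 h, and 10.14, 10.08 and 10.12 at 24 h. Its groups overlapped, and neither difference passed (0.16 ± 0.09 and 0.18 ± 0.09, adjusted p = 0.42 and 0.27). The 4 receptors had a median difference from 0 h of 0.35 at 8 h and 0.39 at 24 h, against -0.01 and 0.02 for all clusters, and 0.17 and 0.32 without untreated replicate 2.

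Of the 15 measured genes of the core machinery, 0 passed at either time with limma, and 5 at 8 h and 7 at 24 h had an unadjusted p below 0.05 (15.1% and 20.4% of all clusters had one). RB1CC1, also called FIP200, the scaffold of the ULK1 complex, had 7.86, 7.34 and 7.60 in untreated cultures, 8.24, 8.05 and 8.33 at 8 h, and 8.27, 8.04 and 8.08 at 24 h. Its treated cultures were all above the untreated ones, by 0.61 ± 0.14 at 8 h (adjusted p = 0.10) and 0.53 ± 0.14 at 24 h (adjusted p = 0.11). It passed at both times without untreated replicate 1, and at neither time in the other 8 fits that left out 1 array (0.47 to 0.69 at 8 h, adjusted p = 0.13 to 0.28; 0.40 to 0.58 at 24 h, adjusted p = 0.12 to 0.33). ATG13, another subunit of that complex, had 10.30, 10.10 and 10.22 untreated, 10.49, 10.39 and 10.52 at 8 h, and 10.51, 10.39 and 10.39 at 24 h. The groups again did not overlap, at differences of 0.26 ± 0.07 and 0.22 ± 0.07 (adjusted p = 0.16 and 0.17). ATG4A, a protease that trims ATG8 proteins, had 8.24, 7.91 and 7.88 untreated, 8.32, 8.28 and 8.50 at 8 h, and 8.52, 8.30 and 8.36 at 24 h. It was higher by 0.36 ± 0.12 and 0.39 ± 0.12 (adjusted p = 0.20 and 0.14), and at 24 h it passed without untreated replicate 1 but in none of the other 8 such fits (0.32 to 0.43, adjusted p = 0.17 to 0.40).

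The other 12 core genes are described by range. At 8 h their differences ran from -0.15 for ULK2, a kinase related to ULK1, to 0.31 for ATG10, the conjugating enzyme for ATG12. At 24 h they ran from 0.04 for ULK2 and for UVRAG, a regulator of the class III PI3-kinase, to 0.54 for ATG10. ULK1 itself differed by 0.07 ± 0.07 at both times, and by 0.01 at both without untreated replicate 1. The ends of these ranges rested on single arrays. ATG10 differed by 0.05 at 8 h and 0.28 at 24 h without untreated replicate 2. ULK2 differed by -0.05 at 8 h without 8 h replicate 2, and by -0.01 at 24 h without untreated replicate 2. On the second untreated array ATG10 had 7.72, against 8.40 and 8.61 on the other untreated arrays, and ATG7, the enzyme that activates ATG8 and ATG12, had 7.98, against 8.51 and 8.69. Over the 15 genes the median difference was 0.22 at 8 h and 0.24 at 24 h, and 0.10 and 0.17 without that array. The difference was above 0 for 14 of 15 at 8 h and 15 of 15 at 24 h, and for 11 and 12 without that array. Of all clusters, 46.9% and 53% were above 0, and 44.7% and 52.4% without that array.

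The other TFE factors did not pass the test. TFEB, the best known activator of lysosome genes, had 9.75, 9.57 and 9.90 in untreated cultures, 9.73, 9.63 and 9.58 at 8 h, and 9.73, 9.70 and 9.81 at 24 h. The groups overlapped, and its differences were -0.09 ± 0.09 at 8 h and 0.01 ± 0.09 at 24 h (adjusted p = 0.64 and 0.97). MITF, known from pigment cells, had 6.04, 6.09 and 6.07 untreated, 5.98, 6.14 and 5.88 at 8 h, and 5.98, 6.04 and 6.04 at 24 h, with differences of -0.06 ± 0.07 and -0.05 ± 0.07 (adjusted p = 0.69 and 0.71). The mean signal of MITF, 6.03, was in the dimmest brightness class (2.61 to 6.69), and whether it was above background was not tested. Whether TFE3 differed from TFEB in its change was not tested.

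The 9 measured lysosome genes had 0 calls at either time with limma, while 5 at 8 h (55.6%) and 4 at 24 h (44.4%) had an unadjusted p below 0.05, against 15.1% and 20.4% of all clusters. LAMP1, an abundant glycoprotein of the lysosomal membrane, had 10.47, 10.43 and 10.39 in untreated cultures, 10.65, 10.59 and 10.70 at 8 h, and 10.59, 10.59 and 10.61 at 24 h. The groups did not overlap, at differences of 0.22 ± 0.05 at 8 h (adjusted p = 0.12) and 0.17 ± 0.05 at 24 h (adjusted p = 0.16). LAMP2, needed for fusion and for chaperone-mediated autophagy, had 9.38, 8.85 and 9.12 untreated, 9.48, 9.40 and 9.55 at 8 h, and 9.62, 9.42 and 9.42 at 24 h. Its differences of 0.36 ± 0.13 and 0.37 ± 0.13 did not pass (adjusted p = 0.25 and 0.19), and were 0.22 and 0.24 without untreated replicate 2. NEU1, the lysosomal sialidase, had 9.34, 8.96 and 9.52 untreated, 9.54, 9.34 and 9.48 at 8 h, and 9.75, 9.66 and 9.78 at 24 h. Its 24 h cultures were above those of both other times, by 0.46 ± 0.13 over 0 h (adjusted p = 0.14, and 0.30 without untreated replicate 2) and 0.28 ± 0.13 over 8 h (adjusted p = 0.54). At 8 h NEU1 differed from 0 h by 0.18 ± 0.13 (adjusted p = 0.54), and by 0.02 without untreated replicate 2.

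The remaining lysosome genes were CTSB, a protease, MCOLN1, a calcium channel, ATP6V0D1 and ATP6V1H, subunits of the proton pump, and HEXA and GLA, which break down glycolipids. They differed from 0 h by -0.14 (CTSB) to 0.32 (ATP6V1H) at 8 h, and by 0.04 (GLA) to 0.27 (HEXA) at 24 h. Single arrays moved these ends too: CTSB differed by -0.03 at 8 h without 8 h replicate 2, ATP6V1H by 0.18 at 8 h without untreated replicate 2, and GLA by 0.01 at 24 h without 24 h replicate 2. The 6 members with an E-box core in their window had differences of 0.10 to 0.25 at 8 h (median 0.20) and 0.05 to 0.46 at 24 h (median 0.18). The 22 matched members without one ranged from -0.15 to 0.60 at 8 h (median 0.19) and from -0.05 to 0.93 at 24 h (median 0.22). Without untreated replicate 2 the medians at 8 h were 0.12 with an E-box core and 0.13 without one, and at 24 h 0.14 and 0.19. Among the 6, ATG3 was then -0.11 at 8 h and -0.04 at 24 h. MCOLN1, which holds the CLEAR element, had small differences of 0.10 ± 0.07 and 0.05 ± 0.07. The antioxidant response element core was in the windows of MAP1LC3B, CALCOCO2, ATG101, ATP6V0D1, LAMP1 and GLA. Of these only MAP1LC3B was called (0.60 at 8 h and 0.43 at 24 h). The others differed by 0.02 (ATG101 and GLA) to 0.22 (LAMP1 and ATP6V0D1) at 8 h, and by 0.04 (GLA) to 0.26 (ATG101) at 24 h. With 1 array left out, ATG101 at 8 h ran from -0.08 (without untreated replicate 1) to 0.13 (without untreated replicate 2). GLA at 8 h ran from -0.02 (without 8 h replicate 3) to 0.09 (without 8 h replicate 2). At 24 h ATG101 was 0.07 without 24 h replicate 1.

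**Figure D4:**
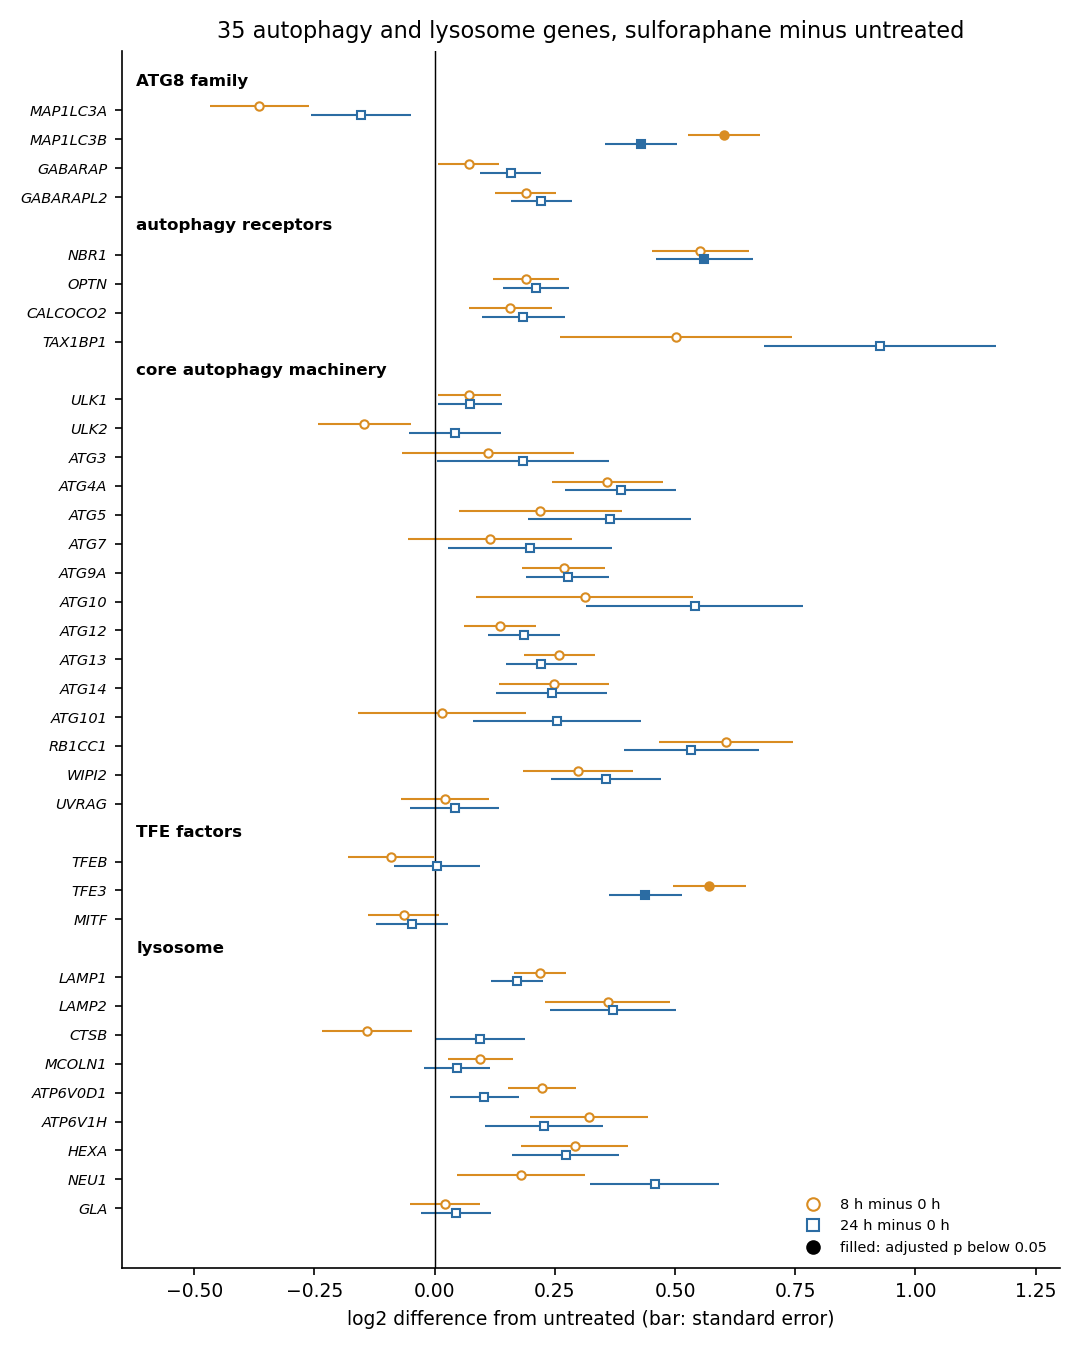
log2 difference from untreated cultures (horizontal axis, bars are standard errors) of the 35 members by list, at 8 h (circles) and 24 h (squares). Filled symbols passed an adjusted p of 0.05. MAP1LC3B and TFE3 are filled at both times and NBR1 at 24 h, and most other members lie to the right of 0 without passing.

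Over the 35 members, the difference from 0 h was above 0 for 30 of 35 at 8 h and 33 of 35 at 24 h, with a median of 0.19 and 0.22. Over all clusters 46.9% were above 0 at 8 h and 53% at 24 h, and the median was -0.01 at 8 h and 0.02 at 24 h. In the brightest class of clusters 60.8% and 68.8% were above 0, and in the next class 52.8% and 64.1%. Without untreated replicate 2 the members above 0 numbered 27 at 8 h and 29 at 24 h, and their median was 0.13 and 0.17. The share of all clusters above 0 was then 44.7% and 52.4%. At 8 h, 15 members had all treated cultures above all untreated ones, against 9.06% of clusters, and at 24 h 20 members did, against 15.6%, while 0 members were wholly below, against 8.75%. The 2 comparisons share their untreated arrays, so they do not count as separate support. From 8 h to 24 h the median difference of the members was 0.02, equal to that of all clusters, and 6 members were higher on all 24 h arrays (15.2% of clusters) and 2 lower (6.40%).

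The pathway beyond the members was covered by 6 further lists with 118 measured genes of 151. At 8 h 0 of the 118 were called, with 25 (21.2%) at an unadjusted p below 0.05, against 15.1% of clusters. At 24 h 5 rose and 0 fell, against 1.62% of clusters called. There 42 (35.6%) had an unadjusted p below 0.05, against 20.4% of clusters. The difference from 0 h was above 0 for 73 (61.9%) at 8 h and 101 (85.6%) at 24 h, with medians of 0.06 and 0.16. Of all clusters 46.9% and 53% were above 0. Without untreated replicate 2 the counts of the 118 were 55 and 100, with medians of -0.03 and 0.11. TP53INP1, which promotes autophagosome formation and is a known p53 target, was 1 of 23 other autophagy genes. It had 10.05, 9.88 and 9.88 in untreated cultures, 10.34, 10.32 and 10.44 at 8 h, and 10.61, 10.52 and 10.45 at 24 h, a rise of 0.59 ± 0.08 at 24 h (adjusted p = 0.018). CLCN7, the chloride-proton exchanger of lysosomes, was 1 of 19 other lysosomal membrane proteins. It had 9.38, 9.43 and 9.44 untreated, 9.76, 9.75 and 9.77 at 8 h, and 9.88, 9.73 and 9.77 at 24 h, a rise of 0.37 ± 0.06 at 24 h (adjusted p = 0.029). At 8 h its difference was 0.34 ± 0.06 (adjusted p = 0.051).

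The other 3 calls were among 29 other lysosomal enzymes. CTSC, a protease that activates granule proteases, had 12.46, 12.23 and 12.32 untreated, 12.70, 12.70 and 12.75 at 8 h, and 12.81, 12.75 and 12.73 at 24 h, a rise of 0.43 ± 0.07 at 24 h (adjusted p = 0.033). LGMN, the asparagine endopeptidase legumain, had 12.24, 12.29 and 12.17 untreated, 12.29, 12.23 and 12.35 at 8 h, and 12.74, 12.60 and 12.60 at 24 h. It overlapped with untreated cultures at 8 h (0.06 ± 0.07, adjusted p = 0.68) and rose by 0.41 ± 0.07 at 24 h (adjusted p = 0.033), while its difference of 24 h from 8 h, 0.36 ± 0.07, did not pass (adjusted p = 0.11). SGSH, a sulfatase for heparan sulfate, had 8.98, 9.04 and 9.03 untreated, 9.11, 9.20 and 9.22 at 8 h, and 9.44, 9.39 and 9.31 at 24 h, a rise of 0.36 ± 0.06 at 24 h (adjusted p = 0.034). Each of the 5 lost its call on leaving out any 24 h array, the first 8 h array or the third untreated array, and CTSC, LGMN, SGSH and CLCN7 also on leaving out the third 8 h array (differences 0.33 to 0.63, adjusted p = 0.051 to 0.14). Quantile normalization ended the calls of SGSH (0.24, adjusted p = 0.22) and CLCN7 (0.25, adjusted p = 0.18). Centring each array ended those of LGMN (0.35, adjusted p = 0.051), SGSH (0.30, adjusted p = 0.080) and CLCN7 (0.31, adjusted p = 0.054).

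Values for the further lists are given with both times side by side. The 29 other lysosomal enzymes had a median of -0.02 at 8 h and 0.12 at 24 h, with 13 above 0 at 8 h, 24 at 24 h, and 26 above 0 from 8 h to 24 h. The 19 other membrane proteins had a median of 0.06 at 8 h and 0.17 at 24 h, with 18 above 0 from 8 h to 24 h. Of all clusters, 46.9% were above 0 at 8 h, 53% at 24 h and 57.8% from 8 h to 24 h. No gene of these lists was called from 8 h to 24 h (10 of 29 and 4 of 19 had an unadjusted p below 0.05, against 10.4% of clusters). The 23 other autophagy genes had medians of 0.05 at 8 h and 0.12 at 24 h. The 12 other subunits of the V-ATPase, the pump that acidifies the lysosome, had medians of 0.16 and 0.23, and ATP6V1G1, with the smallest F-test p, was higher by 0.26 ± 0.06 at 24 h (adjusted p = 0.075). Among 10 other selective receptors, with medians of 0.14 and 0.34, that gene was CCPG1, a receptor for the endoplasmic reticulum, at 0.75 ± 0.15 at 24 h (adjusted p = 0.055).

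The 25 regulators of mTORC1 and AMPK, the kinases that restrain and promote autophagy, had medians of 0.03 at 8 h and 0.13 at 24 h and 0 calls, with 6 (24%) and 7 (28%) at an unadjusted p below 0.05, against 15.1% and 20.4% of clusters. The smallest F-test p among them was that of DDIT4, a stress-induced inhibitor of mTORC1, which had 10.33, 10.22 and 10.22 in untreated cultures, 9.96, 9.74 and 10.02 at 8 h, and 10.12, 10.12 and 10.10 at 24 h. Its treated cultures lay below the untreated ones, by -0.35 ± 0.08 at 8 h (adjusted p = 0.097) and -0.15 ± 0.08 at 24 h (adjusted p = 0.32). Without untreated replicate 2 the 8 h medians of 5 of these 6 pathway lists were below 0, between -0.06 and -0.01, and that of the V-ATPase subunits was 0.12. At 24 h without that array all 6 medians were above 0, from 0.07 to 0.21.

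**Figure D5:**
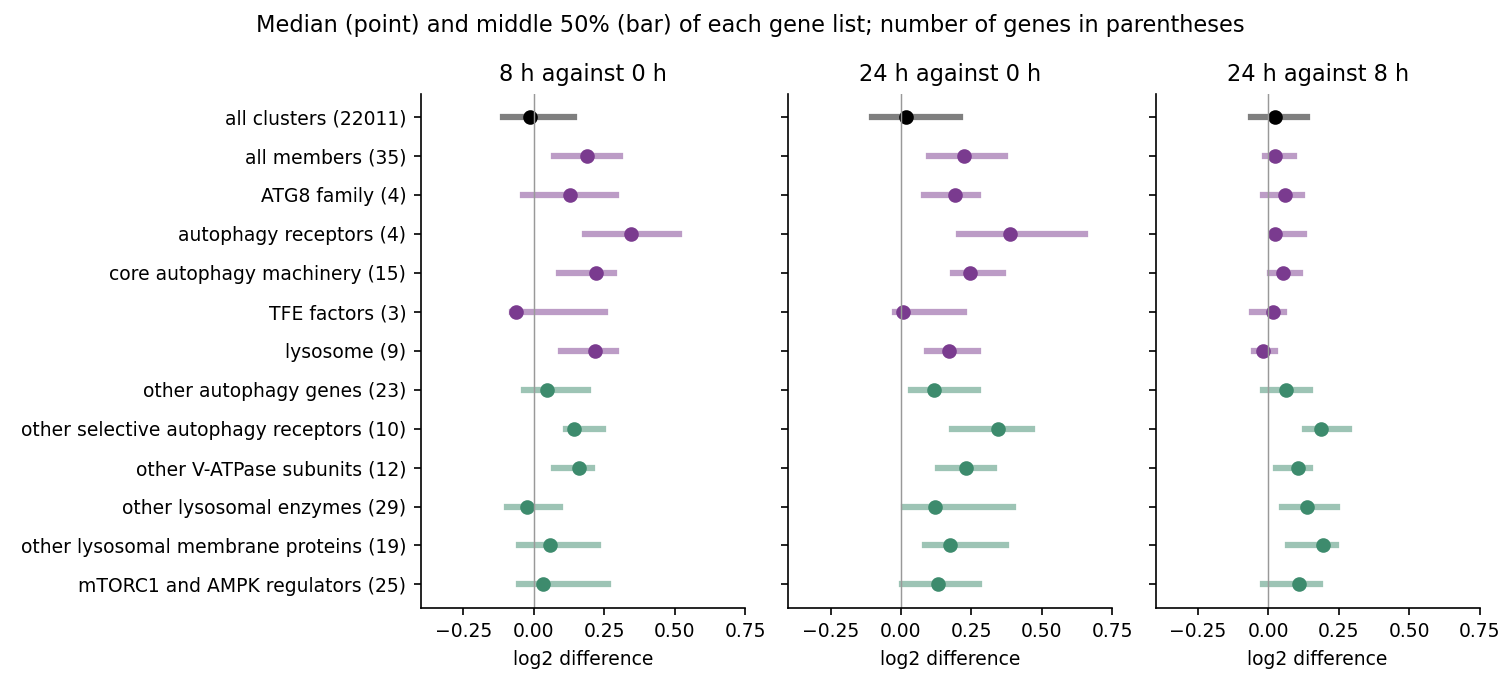
Median (point) and middle 50% (bar) of the log2 differences of each gene list in the 3 comparisons (horizontal axes), with the number of genes in parentheses. Black is all clusters, purple the members and their lists, and green the further pathway lists. The other lysosomal enzymes are at -0.02 at 8 h and 0.12 at 24 h, and the member lists of receptors and core genes are above 0.2 at both times.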

How the data were processed

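Gene-level values of 9 Affymetrix Human Exon 1.0 ST arrays were used: 3 cultures for each of 3 times. The values are on the log2 scale as deposited by the authors, made with Affymetrix Expression Console and RMA per the submitters' processing notes; of their versions, the annotation release and the genome build each is not given in the sources used here. RMA corrects background, normalizes between arrays and summarises probes, so it compresses differences of dim genes. The precision is limited by the 9 arrays. Some members had equal values on several arrays to the last digit kept. MAP1LC3A had 6.7884 on untreated replicate 1 and 24 h replicates 1 and 2, and TFE3 had 9.6068 on replicate 2 at 8 h and at 24 h. The effect of such equal values on the SDs and SEs was not tested. Clusters were named from the platform annotation: 14432 of 22011 had 1 symbol, 2408 several and 5171 none, and none was named from a cluster with several.

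One limma model (version 3.58.1, R 4.3.3; lmFit, eBayes) with a mean per time was fitted to all 22011 clusters and tested on simulated data; 6 residual degrees of freedom were left. Benjamini-Hochberg adjustment ran over all clusters, and a gene was called at an adjusted p below 0.05. Cultures are labelled as replicates, but the labels do not say whether they were independent, so p-values measure the spread between these samples, which may be technical. Members and lists were chosen with earlier results of these data known. All called members were named, with the 3 uncalled ones of each list with the smallest F-test p; in the further lists, up to 3 called genes or, with none, the 1 with the smallest F-test p. Other genes named (ATG7, ATG10 and the ends of ranges among them) were chosen after their values were seen. Alternatives were a replicate block, a filter on dim clusters, quantile normalization, centring, a variance trend, array weights, 2-group fits, another threshold, averaged clusters and leaving out each array. Motifs were searched with Python 3.11.15.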

Additional observations from a re-analysis of the deposited data

How the results depend on the processing

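In the comparison with 0 h in which it was called, every called member and pathway gene kept its direction under all alternatives run, but the number of calls was not stable. Of 35 members, 2 were called at 8 h against 0 h, and this became 0 in a fit on those 2 groups only, 3 with the replicate block, without the dimmest clusters, after quantile normalization, after centring each array on its median and at an adjusted p below 0.10, 25 with array weights and 8 with weights estimated gene by gene. At 24 h against 0 h the 3 calls became 0 in the 2-group fit, 1 after quantile normalization, 2 with the replicate block and after centring, 21 with array weights and 9 with gene-by-gene weights. At 24 h against 8 h the 0 calls became 1 with array weights. The 3 calls of the F-test became 2 with the replicate block and with a variance trend, 25 with array weights and 10 with gene-by-gene weights. The array weights called 43.6% and 40.9% of all clusters at 8 h and 24 h and did not converge, giving untreated replicate 3 a weight of 29.78 and untreated replicate 2 one of 0.136, and the gene-by-gene weights, chosen after seeing the data, called 7.74% and 8.58%. Leaving out 1 array at a time gave 0 to 4 calls at 8 h, 0 to 5 at 24 h, 0 at 24 h against 8 h and 0 to 2 by the F-test. Calls at 24 h were 0 without any 24 h array, 8 h replicate 1 or 3, or untreated replicate 2 or 3, 3 without 8 h replicate 2 and 5 without untreated replicate 1. The median difference of the members at 24 h, 0.22, was 0.14 after quantile normalization.

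Some same-numbered cultures deviated together: the correlation of deviations between 24 h and untreated cultures was 0.394 for number 1, 0.376 for number 2 and 0.056 for number 3, and of all 9 same-number pairs (from -0.137 to 0.394) 3 were over 0.1. Pairs of unlike number ran from -0.425 to 0.134, so 0.394 and 0.376 were above all of them. Since not every same-number pair was over 0.1, and the labels name no pairing, the numbers were not taken as pairs. With the replicate block MAP1LC3B at 24 h had an adjusted p of 0.056, NBR1 at 8 h 0.048, and at 24 h LGMN 0.053, SGSH 0.056 and CLCN7 0.050, just above the threshold.

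Some differences that passed no test changed sign. Most were near 0, but that of NEU1 at 8 h against 0 h was 0.18. After quantile normalization at 24 h against 0 h TFEB was -0.122 and at 24 h against 8 h GABARAPL2 was -0.0037, NBR1 -0.0636, OPTN -0.0429, CALCOCO2 -0.0403, ATG4A -0.0261, LAMP2 -0.0649 and CLCN7 -0.0434. After centring each array at 24 h against 0 h TFEB was -0.0574 and at 24 h against 8 h GABARAPL2 was -0.0078, NBR1 -0.0322, OPTN -0.0186, CALCOCO2 -0.0134, ATG4A -0.0122, MITF -0.0231, LAMP2 -0.0296 and CLCN7 -0.0096. With array weights at 8 h against 0 h NEU1 was -0.0109, at 24 h against 0 h TFEB was -0.121 and at 24 h against 8 h NBR1 was -0.0473, CALCOCO2 -0.0162 and LAMP2 -0.0399. With gene-by-gene weights at 24 h against 0 h TFEB was -0.0661 and at 24 h against 8 h NBR1 was -0.0484, OPTN -0.0007, CALCOCO2 -0.0110, ATG4A -0.0159 and LAMP2 -0.0495. Leaving out 1 array at a time gave, at 24 h against 8 h, -0.0568 to 0.0581 for NBR1, -0.0346 to 0.0969 for ATG4A, -0.0545 to 0.0475 for LAMP2, -0.0115 to 0.0637 for CLCN7, -0.0087 to 0.0600 for OPTN, -0.0375 to 0.0640 for CALCOCO2 and -0.0441 to 0.0889 for MITF, and at 24 h against 0 h -0.0771 to 0.0848 for TFEB. The differences above are those of members given array by array and of called pathway genes. For the other members only differences from 0 h with 1 array left out were examined. At 8 h these fell as low as -0.11 for ATG3, -0.09 for ATG7, -0.03 for UVRAG, -0.08 for ATG101 and -0.02 for GLA. At 24 h they fell as low as -0.04 for ATG3, -0.01 for ATG7 and ULK2 and -0.003 for UVRAG. With all arrays these were above 0. The causes were not tested.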
